A study of Mus musculus with 12 samples.

Results

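The response of cells to low oxygen was followed here through 10 genes, Vegfa, Hif1a, Epas1, Egln1, Egln3, Slc2a1, Hk2, Pgk1, P4ha1 and Bnip3, out of 41214 genes counted in 4 RNA libraries of mouse leukaemia. The 10 were picked because Vegfa lay lower in KD than in KI leukaemia while Hk2 and P4ha1 did not, so their KD to KI differences chose them, are given as a description and carry no test. The leukaemic cells came from C57/BL6 mice with the NUP98-HOXD13 transgene, a leukaemia-causing fusion that both genotypes carry. In mice of that name the Vav promoter restricts the fusion to blood cells. The libraries labelled KI came from 2 mice whose Gfi1 genotype is given as het, KI/wt in the series' chromatin samples, and those labelled KD from 2 mice given as homo, KD/KD there. Gfi1 is a zinc finger repressor of blood progenitors, and in mouse lines of these names the altered allele carries human GFI1 coding sequence, at a reduced level in KD. Age, sex, disease stage and any sorting of the cells were not given in the sources used here.

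In the textbook scheme, hypoxia-inducible factor (HIF) is a pair of an oxygen-regulated alpha subunit, HIF-1alpha or HIF-2alpha, and the stable partner ARNT. With oxygen present, prolyl hydroxylases mark the alpha subunit and the VHL ubiquitin ligase removes it, while in low oxygen the pair enters the nucleus and binds a short core motif near its target genes. The targets raise glucose uptake and glycolysis, collagen maturation, mitophagy and, through VEGF-A, the growth of blood vessels. HIF is controlled largely at the protein level, which RNA counts do not measure. Leukaemic blasts are known to secrete VEGF-A in the bone marrow.

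RefSeq promoter windows (build GRCm38.p6) were found for 9 of the 10 genes, all but Epas1. Each was read over the 250 bases before the start site, and the HIF core was searched as ACGTG and as GCGTG on both strands, so that CACGTG counts as 1 site although it matches on both. Of 32851 windows of the same length in the table, 16.6% held ACGTG, 28.2% held GCGTG and 38.6% held either. At the start site of Vegfa that opens the gene neither form was present, whereas the windows of Hif1a, Egln1, Egln3, Slc2a1, Hk2, Pgk1, P4ha1 and Bnip3 each held ACGTG. A further Vegfa window at a start site inside the gene held both forms. The Hif1a window (chr12:73907617-73907866) lay inside the gene as well, which spans 73901324 to 73947554. The P4ha1 window (chr10:59323046-59323295) partly overlapped its gene, which starts at 59323197. Hif1a and Bnip3, which like Vegfa lay lower in both KD libraries, held ACGTG, as did the genes that lay higher. Of pathway genes outside the 10, windows of Flt1, Hif3a and Gbe1, all lower in both KD libraries, were searched and held no ACGTG. Flt1 and Hif3a held GCGTG, and no window of an outside gene higher in KD was searched. A link between motif and level was not tested. The windows of Vegfa, of Bnip3 and of 3 glucose genes that lay level or higher in KD are shown, 5′ to 3′ on the gene's strand, with matches in capitals. They lie on GRCm38.p6 at chr17:46032378-46032627 (minus strand) for Vegfa, chr7:138909507-138909756 (minus) for Bnip3, chr6:82774455-82774704 (minus) for Hk2, chr4:119108495-119108744 (plus) for Slc2a1 and chrX:106186850-106187099 (plus) for Pgk1.
Vegfa: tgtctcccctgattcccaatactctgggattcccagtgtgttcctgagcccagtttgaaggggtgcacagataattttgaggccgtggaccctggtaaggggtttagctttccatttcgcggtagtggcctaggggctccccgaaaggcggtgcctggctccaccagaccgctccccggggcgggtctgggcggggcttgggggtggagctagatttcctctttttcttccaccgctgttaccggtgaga
Bnip3: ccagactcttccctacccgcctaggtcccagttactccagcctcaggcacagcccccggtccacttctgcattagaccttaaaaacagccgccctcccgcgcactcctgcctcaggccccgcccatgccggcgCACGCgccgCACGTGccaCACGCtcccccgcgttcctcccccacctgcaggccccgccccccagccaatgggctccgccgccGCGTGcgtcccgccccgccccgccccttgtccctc
Hk2: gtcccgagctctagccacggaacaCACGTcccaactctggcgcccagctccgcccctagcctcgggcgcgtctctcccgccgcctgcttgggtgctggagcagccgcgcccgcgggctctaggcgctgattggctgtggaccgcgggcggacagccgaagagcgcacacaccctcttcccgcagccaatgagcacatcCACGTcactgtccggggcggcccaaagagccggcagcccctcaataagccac
Slc2a1: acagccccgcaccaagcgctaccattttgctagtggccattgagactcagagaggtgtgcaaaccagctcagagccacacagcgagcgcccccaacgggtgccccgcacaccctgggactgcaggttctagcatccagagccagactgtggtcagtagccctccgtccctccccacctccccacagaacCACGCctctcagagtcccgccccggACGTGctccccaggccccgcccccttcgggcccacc
Pgk1: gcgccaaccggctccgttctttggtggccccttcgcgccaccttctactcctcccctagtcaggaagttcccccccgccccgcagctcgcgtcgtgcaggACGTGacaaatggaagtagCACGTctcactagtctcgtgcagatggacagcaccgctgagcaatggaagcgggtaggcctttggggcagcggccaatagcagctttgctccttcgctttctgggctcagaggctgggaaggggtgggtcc
A match is a stretch of letters and not a measured binding site, and enhancers outside these windows were not searched.

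The libraries held 4581593 gene counts in KI replicate 1 and between 10263454 and 11934542 in the other 3. Reads that fell in no gene made up 88.3% of the uniquely aligned reads in KI replicate 1 and 63.2% to 68.3% in the others, and for the strand setting of the counting nothing is stated, so sense and antisense reads cannot be told apart. Levels are given as CPM, the counts relative to each library's total after scaling by TMM factors, and differences as the fitted log2 ratio of KD to KI with its standard error. Sensory receptor genes for smell, pheromones and taste, silent in blood as a rule, had a summed level of 979 CPM in KI replicate 1 and 143 to 237 CPM in the others. Gfi1 itself lay lower in both KD libraries, at 36.2 and 89.0 CPM in KI and 7.22 and 1.12 CPM in KD. Reads from human GFI1 sequence need not be counted at the mouse gene. As the genotypes are given, KI/wt keeps a wild-type mouse allele and KD/KD keeps none, so these counts do not measure the GFI1 level in KD. Of 13 markers of blasts and myeloid progenitors, 9 had overlapping genotypes, among them Mpo and Elane, 3 lay higher in both KD libraries (Cd34, Prtn3 and Spi1) and 1 lower (Kit), and their summed level was between 3034 and 5174 CPM in the 4 libraries. Markers of neutrophil granules and maturation had a summed level of 16216 and 17255 CPM in the KI libraries and of 3612 and 1651 CPM in the KD libraries, and 12 of these 13 genes lay lower in both KD libraries, all but Mmp8. Erythroid markers summed to 605 and 545 CPM in KI and 136 and 37.1 CPM in KD, with 13 of 13 lower and Hba-a1 and Epor at 0 counts in KD replicate 2. T cell markers summed to 75.6 and 72.1 against 11.7 and 16.8 CPM, with 7 of 10 lower. Of 12 monocyte and macrophage markers 6 lay higher in both KD libraries and 6 overlapped (sums of 6535 and 3357 CPM in KI, 7281 and 5833 in KD). Megakaryocyte markers summed to 41.5 and 16.3 CPM in KI and 34.5 and 7.26 CPM in KD, with 4 of 8 lower, and B cell markers to 97.4 and 115 CPM in KI and 113 and 172 CPM in KD, with 2 of 8 lower and 1 higher.

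Vegfa was the gene of the 10 that differed most between the genotypes. The gene (ENSMUSG00000023951, GRCm38 chromosome 17, 46016993 to 46032377) encodes VEGF-A, the main growth signal for blood vessels. Its level was 32.5 and 45.9 CPM in KI replicates 1 and 2 and 9.84 and 8.21 CPM in KD replicates 1 and 2, from 140, 387, 139 and 95 counts. The genotypes did not overlap, and the lower KI library stood 3.30 times above the higher KD library, while the KI libraries differed from each other by 1.41 times and the KD libraries by 1.20 times. The mean was 39.2 ± 9.51 CPM (SD, n = 2) in KI and 9.02 ± 1.15 CPM (SD, n = 2) in KD, a log2 fold change of -2.12 ± 0.36 (SE), or 4.34 times more in KI. Among all 13822 genes tested, 23.5% had both KD libraries below both KI libraries and 14.5% had both above. The neutrophil, erythroid and T cell markers named above were lower in the same 2 libraries, and their part in the Vegfa difference was not tested. In bulk RNA, fewer cells of a type and less RNA per cell cannot be told apart.

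**Figure D1:**
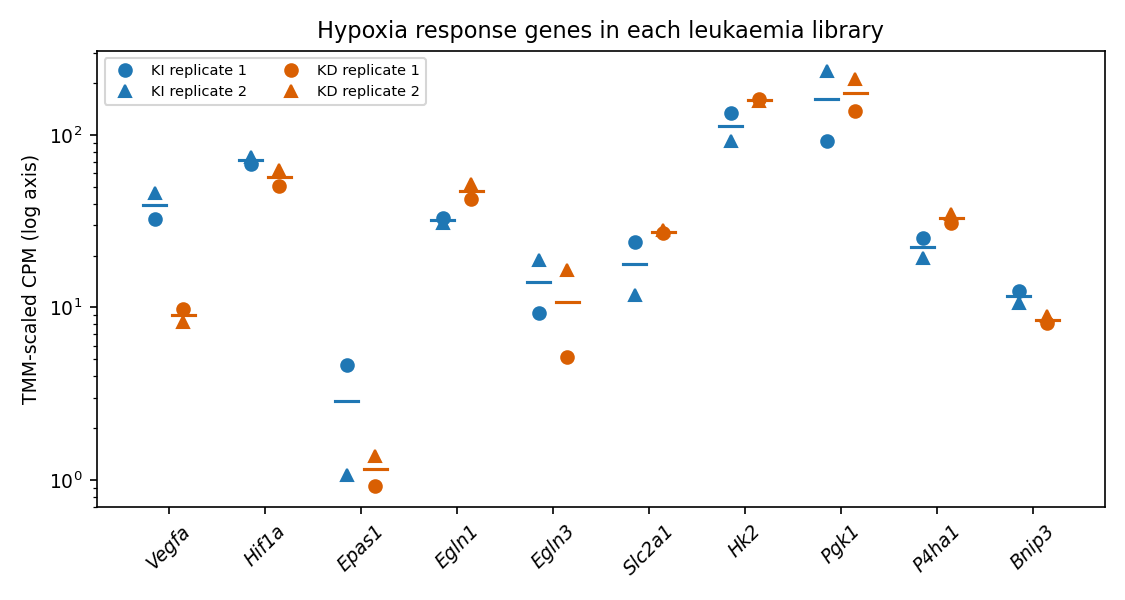
TMM-scaled CPM on a log axis for the 10 genes in each of the 4 libraries, with a line at each genotype's mean (n = 2). Vegfa stands at 32.5 and 45.9 in KI and at 9.84 and 8.21 in KD, while the other 9 genes have KI and KD values closer together or overlapping.

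Of the 10 genes, all of which passed the low-count filter, 3 lay lower in both KD libraries (Vegfa, Hif1a and Bnip3), 4 lay higher in both (Hk2, P4ha1, Egln1 and Slc2a1) and 3 overlapped (Epas1, Egln3 and Pgk1). Of the fold changes 5 were positive and 5 negative, beside 55.5% negative among all genes. The choice of the genes rests on this contrast, so nothing is read from these counts. Their median log2 fold change was -0.12, beside -0.06 for all 13822 genes.

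The Hif1a and Epas1 transcripts differed less between the genotypes than Vegfa. Hif1a (chromosome 12, 73901324 to 73947554), which encodes HIF-1alpha, lay at 68.2 and 74.9 CPM in KI and 50.9 and 62.8 CPM in KD. The KI libraries were both above the KD libraries, by as little as 1.09 times, and the log2 fold change was -0.33 ± 0.28 (SE). With library size as the only scaling the genotypes overlapped and the value was 0.09, where the same change moved all genes by a median of 0.42. Epas1 (chromosome 17, 86753864 to 86833410), which encodes HIF-2alpha, was scarce, with 20, 9, 13 and 16 counts, or 4.64 and 1.07 CPM in KI and 0.920 and 1.38 CPM in KD. The genotypes overlapped, and KI replicate 1, where the sensory receptor sum was also high, stood apart. The value of -1.27 ± 0.97 (SE) became 0.22 without that library. Epas1 reads made up 0.0680 of the Hif1a reads in KI replicate 1 and between 0.0143 and 0.0220 in the other 3 libraries.

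Of the oxygen sensors, Egln1 lay higher in KD and Egln3 varied within both genotypes. Egln1 (chromosome 8, 124908587 to 124949254), the prolyl hydroxylase PHD2 that sets HIF-1alpha turnover in most cells, lay at 33.2 and 31.0 CPM in KI and 42.7 and 52.2 CPM in KD. Both KD libraries were above both KI libraries, the mean moved from 32.1 ± 1.56 to 47.5 ± 6.68 CPM (SD, n = 2 each), and the log2 fold change was 0.57 ± 0.29 (SE). Egln3 (chromosome 12, 54178981 to 54203874), the hydroxylase PHD3 and itself a HIF target, lay at 9.28 and 18.9 CPM in KI and 5.17 and 16.4 CPM in KD. Replicate 2 was the higher library in both genotypes, by 2.03 times in KI and 3.18 times in KD, so the spread within a genotype exceeded the difference between them (log2 -0.39 ± 0.68, SE). Leaving out KD replicate 2 gave -1.45, and leaving out KI replicate 2 gave 0.25.

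The glucose genes among the 10 lay level or higher in KD. Hk2 (chromosome 6, 82725025 to 82774454), a hexokinase that catalyses the first step of glycolysis, lay at 134.5 and 92.4 CPM in KI and 162.1 and 157.1 CPM in KD, from 580, 779, 2291 and 1819 counts. Both KD libraries were above both KI libraries by 1.17 times or more, less than the 1.46 times between the KI libraries, and the log2 fold change was 0.49 ± 0.30 (SE). Slc2a1 (chromosome 4, 119108745 to 119137330), the glucose transporter GLUT1, lay at 23.9 and 11.7 CPM in KI and 27.1 and 28.0 CPM in KD. KI replicate 2 was the low library, and the log2 fold change of 0.64 ± 0.43 (SE) was 0.27 without it and 1.36 without KI replicate 1. With upper quartile scaling the genotypes of Hk2 and Slc2a1 overlapped. Pgk1 (chromosome X, 106187100 to 106203699), the glycolytic phosphoglycerate kinase, lay at 92.1 and 233.5 CPM in KI and 137.0 and 211.4 CPM in KD. Its genotypes overlapped, the KI libraries differed by 2.54 times, and the log2 fold change of 0.10 ± 0.51 (SE) was -0.30 when KI replicate 1 was left out and 0.97 when KI replicate 2 was.

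P4ha1 and Bnip3 stood on opposite sides. P4ha1 (chromosome 10, 59323197 to 59373304), a collagen prolyl hydroxylase subunit, lay at 25.3 and 19.3 CPM in KI and 31.0 and 34.6 CPM in KD. Both KD libraries were above both KI libraries under all 5 scalings tried, with a log2 fold change of 0.56 ± 0.32 (SE). Bnip3 (chromosome 7, 138890836 to 138909506), a mitophagy receptor of the outer mitochondrial membrane, lay at 12.5 and 10.7 CPM in KI and 8.14 and 8.90 CPM in KD. Both KD libraries were lower, with log2 -0.44 ± 0.41 (SE), and the genotypes overlapped with library size only.

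Ratios of read counts within 1 library do not depend on how libraries are scaled, and they were computed after the levels were seen. Per Hk2 read there were 0.241 and 0.497 Vegfa reads in KI and 0.0607 and 0.0522 in KD. Per P4ha1 read there were 1.28 and 2.37 Vegfa reads in KI and 0.317 and 0.237 in KD, and per Egln1 read 0.979 and 1.48 against 0.230 and 0.157. Each of these ratios was higher in both KI libraries, and so was the ratio to Pgk1, at 0.353 and 0.197 in KI and 0.0718 and 0.0388 in KD. As the genes were picked for this contrast, no test is given.

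**Figure D2:**
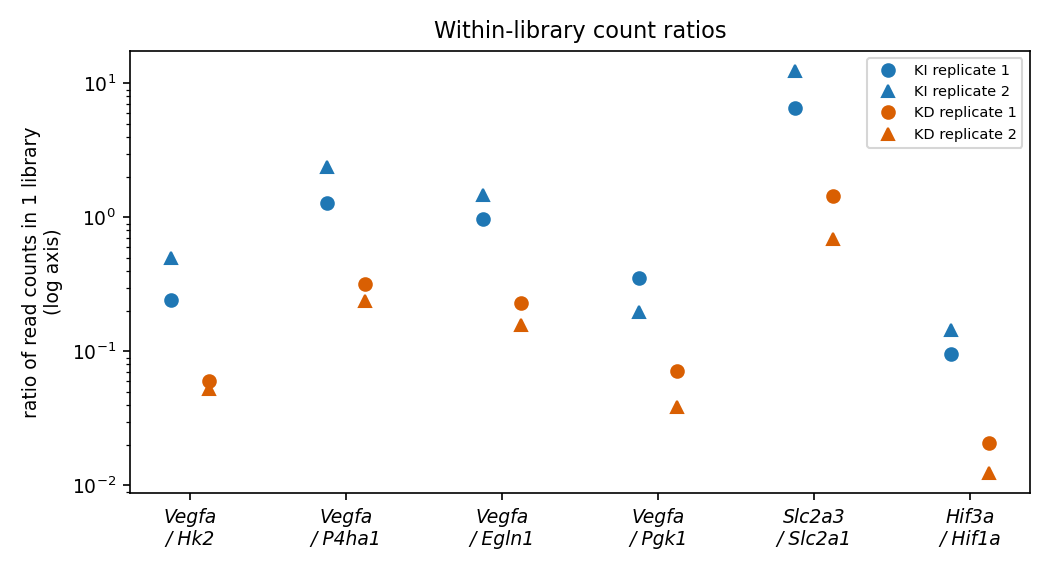
Ratio of the read counts of 2 genes within each library, on a log axis, with 1 point per library. The Vegfa to Hk2 ratio is 0.241 and 0.497 in KI and 0.0607 and 0.0522 in KD, and the KI points lie above the KD points in each of the 6 ratios shown. Of the 8 ratios computed, Epas1 to Hif1a, not drawn, overlapped between the genotypes, and Flt1 to Nrp1, not drawn, was higher in both KI libraries.

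The wider pathway was described with 6 lists by role, which held 94 genes besides the 10. Of these, 81 passed the low-count filter, 39 with a positive and 42 with a negative fold change, and their median log2 fold change was -0.05. In edgeR's quasi-likelihood test 0 were called higher and 0 lower in KD at a Benjamini-Hochberg adjusted p under 0.05, as for all genes (0% in each direction). At an unadjusted p under 0.05 there were 1 higher and 8 lower, or 9.88% lower, beside 1.29% higher and 8.34% lower of all genes. DESeq2 called 3 of the 80 with an adjusted p lower (Slc2a3, Flt1 and Hif3a) and 0 higher, beside 1.05% and 0.0384% of all genes. Both KD libraries lay below both KI libraries for 19 genes (23.5%) and above for 12 (14.8%), which is at the level of all genes (23.5% and 14.5%). The 50 genes with at least 20 CPM on average had a median of 0.13 (0.09 for all such genes), and the 31 with less had -0.85 (-0.46 for all such genes).

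**Figure D3:**
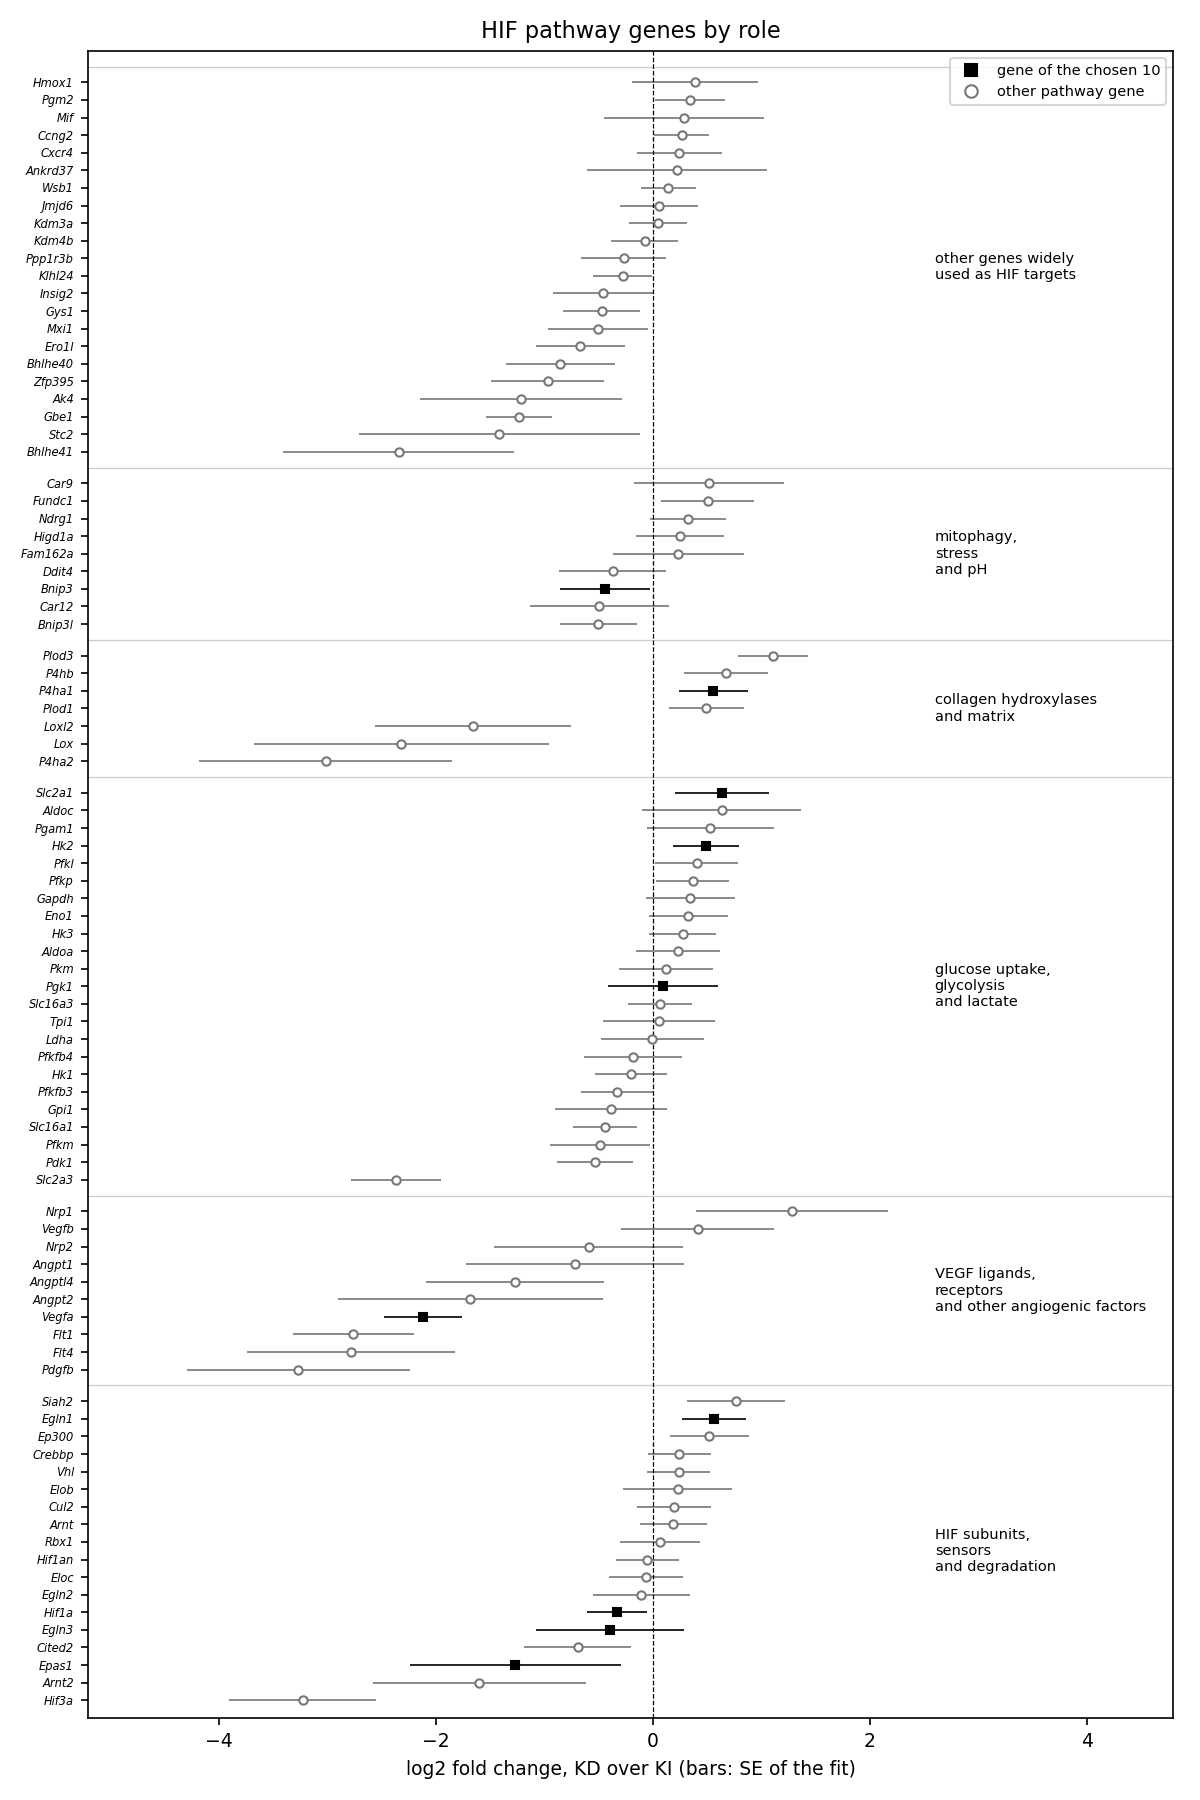
Fitted log2 fold change of KD over KI with its standard error for the 10 genes (black squares) and 79 of the 81 other pathway genes that passed the filter (open circles), grouped by role. Most glycolytic genes lie near 0, whereas Slc2a3 at -2.36, Flt1 at -2.76 and Hif3a at -3.23 lie on the side of Vegfa at -2.12.

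The 3 genes that DESeq2 called were another glucose transporter, a receptor for VEGF-A and a further HIF alpha subunit. Slc2a3, the high-affinity glucose transporter GLUT3, lay at 156.8 and 145.8 CPM in KI and 39.3 and 19.4 CPM in KD (log2 -2.36 ± 0.41, SE; edgeR adjusted p = 0.518, DESeq2 adjusted p = 0.0013). The KI libraries were almost alike, and the lower of them stood 3.71 times above the higher KD library. Flt1, which encodes VEGF receptor 1, lay at 15.5 and 24.7 CPM in KI and 1.98 and 3.97 CPM in KD (log2 -2.76 ± 0.56, SE; edgeR adjusted p = 0.518, DESeq2 adjusted p = 0.0038). Hif3a, whose product HIF-3alpha can dampen the other alpha subunits, was scarce, at 28, 92, 15 and 9 counts, or 6.49 and 10.9 CPM in KI and 1.06 and 0.778 in KD (log2 -3.23 ± 0.68, SE; edgeR adjusted p = 0.518, DESeq2 adjusted p = 0.0169). Both KI libraries were above both KD libraries for all 3 genes under all 5 scalings tried. With 1 library left out, DESeq2 called all 3 without KI replicate 1. Slc2a3 alone of the 3 stayed called without KI replicate 2 and without KD replicate 1, and none was called without KD replicate 2, where Slc2a3 had DESeq2 adjusted p = 0.425. In edgeR, Flt1 and Hif3a were called without KI replicate 1, and Slc2a3 without KI replicate 2 and without KD replicate 1. The ratio of Slc2a3 to Slc2a1 reads was 6.56 and 12.4 in KI and 1.45 and 0.694 in KD, higher in both KI libraries. This ratio was not tested. The ratio of Hif3a to Hif1a reads was 0.0952 and 0.146 in KI and 0.0208 and 0.0124 in KD. The neutrophil markers that lay lower in the same KD libraries were not tested for a part in these differences.

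The partners and regulators of the alpha subunits differed less than Hif3a. Of 14 genes for HIF subunits, sensors and degradation 8 had a positive and 6 a negative value (median 0.13), and 10 had overlapping genotypes. Both KD libraries lay lower for 2 genes (14.3%) and higher for 2 (14.3%), beside 23.5% and 14.5% of all genes. Arnt, the partner of the alpha subunits, had a log2 fold change of 0.19 ± 0.31 (SE), Vhl, the recognition subunit of the ligase, 0.24 ± 0.29, and Hif1an, the asparaginyl hydroxylase FIH, -0.05 ± 0.29. Egln2, the third prolyl hydroxylase, had -0.10 ± 0.44, a sign that turned with library size only (0.36) and without KI replicate 2 (0.62). The coactivators Ep300 and Crebbp had 0.52 ± 0.36 and 0.25 ± 0.29. Cited2, which competes with HIF for these coactivators, had -0.69 ± 0.49, and 0.25 without KI replicate 2.

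Among the other VEGF ligands and receptors, most were scarce. Of 19 genes in that list besides Vegfa, 9 passed the filter, and 7 of these were negative (median -1.27), beside 55.5% negative among all genes. Both KD libraries lay lower for 3 of the 9 (33.3%) and higher for 1 (11.1%), beside 23.5% and 14.5% of all genes. Most of the 9 lay under 20 CPM on average, where all genes had a median of -0.46 and 36% of them lay lower in both KD libraries. Vegfb had 11, 22, 34 and 52 counts (log2 0.41 ± 0.71, SE, and -0.10 without KD replicate 2). Vegfc had at most 6 counts in a library, Pgf at most 5 and Kdr, the main endothelial VEGF receptor, at most 19, and none of these passed. Nrp1, a coreceptor for VEGF-A, lay at 83.7 and 10.6 CPM in KI and 97.4 and 130.1 CPM in KD, so that KI replicate 2 was the low library. Its log2 fold change of 1.28 ± 0.88 (SE) was 3.55 without KI replicate 1, where edgeR's adjusted p was 0.0132 with a lone KI mouse, and 0.50 without KI replicate 2. Nrp2, its relative, had -0.59 ± 0.87, and 1.44 without KI replicate 1. Markers of endothelium and stroma summed to 103 and 51.7 CPM in KI and 70.5 and 99.3 CPM in KD. Much of that sum was Pecam1, an adhesion molecule also found on blood cells, at 35.3 and 36.8 CPM in KI and 54.2 and 80.8 CPM in KD, the 1 marker of 10 that lay higher in both KD libraries. Emcn, Kdr, Col1a1 and Col3a1 lay lower in both KD libraries, each at most 5.57 CPM in a library, and 5 overlapped, among them the endothelial cadherin Cdh5 with at most 5 counts in a library. The part of these cells in the values of Flt1 and the other receptors was not tested.

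Glycolysis beyond the 10 genes was close to level. Of 20 such genes 11 had a positive and 9 a negative value (median 0.06), and 18 had overlapping genotypes. Both KD libraries lay lower for 2 genes (10%) and higher for 0, beside 23.5% and 14.5% of all genes. Slc2a3 was the 1 gene of this list at an unadjusted p under 0.05. The most counted of them, Pkm (pyruvate kinase), Gpi1 (glucose phosphate isomerase) and Aldoa (aldolase), had 0.12 ± 0.43, -0.38 ± 0.51 and 0.24 ± 0.39 (SE). Ldha, lactate dehydrogenase A and a classical HIF target, lay at 150.5 and 344.5 CPM in KI and 199.3 and 294.6 CPM in KD, with means of 248 ± 137 and 247 ± 67.4 CPM (SD, n = 2). Both KD values lay between the KI values, with KI replicate 1 the lowest library and KI replicate 2 the highest. Pdk1, a pyruvate dehydrogenase kinase, had -0.53 ± 0.35. The hexokinases Hk1 and Hk3 had -0.20 ± 0.33 and 0.28 ± 0.31. With library size only, Hk1 (0.25), Gpi1 (0.09), Ldha (0.47) and Hif1an (0.38) were positive. That scaling moved all genes by a median of 0.42. Without KI replicate 2, Pkm was 0.63, Gpi1 0.41 and Ldha 0.77.

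The collagen enzymes and mitophagy genes went both ways. Of 7 matrix genes that passed the filter, 3 lay lower (Loxl2 and P4ha2 among them) and 3 higher (Plod3, P4hb and Plod1) in both KD libraries, beside 23.5% lower and 14.5% higher of all genes. Plod3, a lysyl hydroxylase, lay at 96.7 and 68.6 CPM in KI and 202.4 and 154.2 CPM in KD (log2 1.11 ± 0.32, SE) and was the 1 pathway gene higher at an unadjusted p under 0.05 (edgeR adjusted p = 0.518, DESeq2 adjusted p = 0.153). P4hb, the partner subunit of P4ha1 and a disulfide isomerase, had 0.68 ± 0.39, and Plod1 0.49 ± 0.35. P4ha2, the paralogue of P4ha1, lay at 10.2 and 1.66 CPM in KI and 1.06 and 0.346 CPM in KD, a value of -3.02 ± 1.17 that was -1.04 without KI replicate 1. Bnip3l, the relative of Bnip3 that clears mitochondria from maturing red cells, had -0.50 ± 0.35, and 0.03 without KI replicate 2. Ndrg1, a stress-induced gene, had 0.33 ± 0.35. Among the other genes widely used as HIF targets the most counted were Cxcr4, the homing receptor for bone marrow (0.25 ± 0.39), Klhl24 (-0.27 ± 0.27, and 0.16 with library size only) and Wsb1 (0.15 ± 0.25). Gbe1, the glycogen branching enzyme, was picked out once its values were known, and its level was 48.7 and 63.2 CPM in KI and 25.1 and 22.6 CPM in KD (log2 -1.23 ± 0.30, SE; edgeR adjusted p = 0.518, DESeq2 adjusted p = 0.177).

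The genes most like Vegfa over the 4 libraries were sought among 6393 genes with a symbol and at least 20 CPM on average, by the Euclidean distance between log2 CPM values centred on each gene's mean. The nearest 5 were Acpp, an acid phosphatase (distance 0.23), Mapk13, a p38 kinase (0.34), the septin Sept1 (0.38), Rflnb, a filamin-binding protein (0.40), and Lcn2, a siderophore-binding protein of neutrophil granules (0.40). Acpp lay at 29.9 and 40.2 CPM in KI and 7.22 and 6.57 CPM in KD, and Lcn2 at 550 and 653 against 204 and 171. With 4 libraries of 2 genotypes any gene with a like KD to KI difference comes close, so the order is a description only. Among the pathway genes that passed the filter Hif3a (0.64) and Slc2a3 (0.78) were nearest to Vegfa. The 20 CPM limit was not applied to pathway genes, and at the Hif3a mean of 4.81 CPM the offset of 0.5 CPM shrinks log2 differences.

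The member values were recomputed under 13 other processing choices, 12 for Epas1. Vegfa kept a negative value in each, between -2.26 without KD replicate 1 and -1.67 with library size only. Hk2, P4ha1, Egln1 and Slc2a1 kept a positive value and Bnip3 a negative one in each. Hif1a, Epas1, Egln3 and Pgk1 changed sign in at least 1, as given above.

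**Figure D4:**
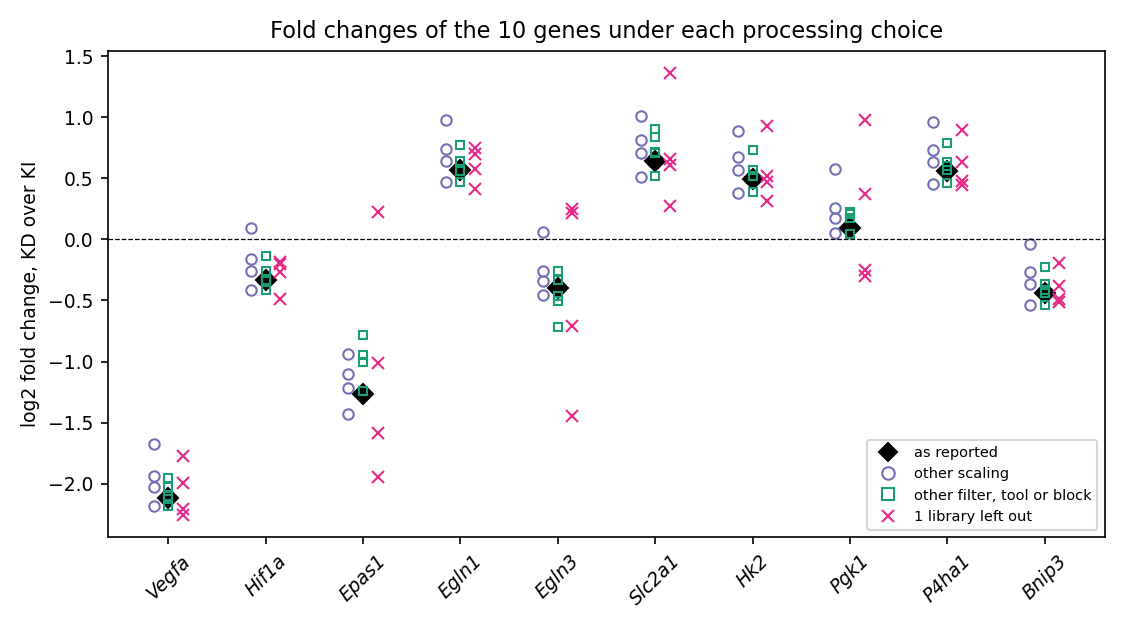
Log2 fold change of KD over KI for the 10 genes as reported (diamonds), with other scalings (circles), with other filters, tools or the replicate block (squares) and with 1 library left out (crosses). Vegfa stays between -2.26 and -1.67, while Epas1, Egln3, Pgk1 and Hif1a have points on both sides of 0.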

How the data were processed

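TruSeq Stranded mRNA libraries came from the leukaemia of 4 mice, 2 of each genotype. The raw counts per Ensembl gene were deposited by the authors, and the submitters' processing notes list GRCm38, HTSeq, DESeq, SAMtools and TopHat2 2.0.10. Strand setting, annotation release and read filters were not given in the sources used here. Entries that name no gene (unassigned or ambiguous reads) took 93.2% to 97.9% of the reads in a deposited table and were dropped. Symbols came from a gene table (40254 of 41214 matched, Ero1a through its older name, Ahsp with no match). Coordinates came from RefSeq on GRCm38.p6. The 8 chromatin libraries were not analysed, since the 1616 columns of their tables name neither antibody nor mouse.

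The filter filterByExpr of edgeR 4.0.16 (R 4.3.3) kept 13822 genes. Libraries were scaled by TMM, and genotype was tested with glmQLFit and glmQLFTest with Benjamini-Hochberg adjustment at 0.05. The fit was run on simulated data as a check of its fold changes, which set no demand on the number of genes called. A depth of 3 counts equals 0.212 to 0.696 CPM. Other settings were 4 scalings (upper quartile, RLE, library size alone, and TMM without the 20 most counted genes), 2 filters (none, or 5 CPM in 2 libraries), 2 tools (limma-voom in limma 3.58.1 and DESeq2 1.42.0), the replicate number as a block, and omission of each library with the genes tested held fixed. DESeq2 without each library was added after the data were seen. The 10 genes, the lists and the alternatives were chosen with earlier results of these data known. Named genes were the 10, Gfi1, close relatives and partners, the 3 most counted genes of each list, pathway genes called by either tool (values of 2 pathway genes are not reported here), and the 5 genes nearest to Vegfa in log2 CPM (offset 0.5). With 2 mice a genotype, a p-value here weighs a difference against the spread among these mice, estimated in part across genes. It does not reach beyond these mice.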

Additional observations from a re-analysis of the deposited data

How the results depend on the processing

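Of the 129 values of the 10 genes under other settings, 106 moved by less than 1 SD between replicates and 23 by more. Leaving out the 20 most counted genes shifted all genes by a median of 0.17, no filter by 0.20 and leaving out KI replicate 1 by 0.13. Epas1 gave no value at 5 CPM in 2 libraries. Genes called higher and lower in KD were 0 and 0 in edgeR with TMM, RLE, upper quartile, library size only, without the 20 most counted genes, at 5 CPM and in limma-voom, 29 and 140 with no filter, and 5 and 137 in DESeq2. With the replicate block they were 0 and 7, none a pathway gene. The deviations of equal replicate numbers correlated at 0.27 across genes, and the labels do not say that a number marks a litter or day. Leaving out 1 library gave 3 to 149 higher and 29 to 774 lower in edgeR, and in DESeq2 without KI replicates 1 and 2 and KD replicates 1 and 2 in turn 435, 27, 1 and 6 higher and 167, 407, 86 and 38 lower, the remaining mouse being taken to vary as the other genotype does. Calls at an unadjusted p under 0.05 were 13.4% upward with TMM and 77.2% upward with library size only. Pathway genes called lower were 2 with no filter (Flt1 and Slc2a3), 3 in DESeq2, 0 to 4 without 1 library in edgeR (most without KI replicate 2, Bhlhe41, P4ha2, Pdgfb and Slc2a3) and 3, 2, 1 and 0 in DESeq2 in the order above, and those called higher 0 to 1 in edgeR (Nrp1) and 2, 0, 0 and 0 in DESeq2 (Nrp1 and Plod3). The pathway median of -0.05 was 0.38 with library size only, 0.12 without the 20 most counted genes and 0.052 in limma-voom, and ran from -0.17 to 0.13 without 1 library. The cause of these changes was not tested.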
